A study of Homo sapiens with 6 samples.

Results

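The cadherin family was examined in the human liver cancer line Huh-7 after stable overexpression of the small GTPase RAC3. Its members were taken by symbol: the CDH genes other than CDH1 and CDH2, all PCDH genes, FAT1 to FAT4, DCHS1, DCHS2, CELSR1 to CELSR3, DSC2 and DSG2, which gave 98 of the 20332 genes in the table. Polyadenylated RNA was sequenced from 3 RAC3-overexpressing samples and 3 samples of the corresponding negative control, and the labels give no treatment. The genotype field of the controls reads WT, and the overexpressing cells were made with a lentivirus. An effect of RAC3 thus cannot be told apart from one of making the stable line, and the words with RAC3 below name the samples only. A single line was studied, so the p-values measure only the spread between these samples, which may be technical. The family was picked on the known rise of PCDH7 in this same comparison, so its counts and fold changes are given as a description.

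Cadherins are calcium-dependent adhesion proteins that hold neighbouring cells together through repeated extracellular domains. Classical cadherins anchor to the actin cytoskeleton through catenins, desmosomal cadherins to intermediate filaments, and protocadherins mostly give weaker adhesion and signal through their own cytoplasmic tails. FAT, Dachsous and CELSR proteins are giant cadherins that orient cells within a sheet. RAC GTPases act on actin through the WAVE complex, which several protocadherins bind. Hepatocytes adhere mainly through E- and N-cadherin (CDH1 and CDH2).

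The total counts per sample lay between 13855762 and 18199888. Levels below are CPM values, counts scaled to a common library size by the TMM method, and 3 counts, the most that a count of 0 allows, correspond to 0.167 to 0.215 CPM, which covers counting error only. RAC3 had 35.6, 31.4 and 32.8 CPM in the negative controls and 232.6, 239.6 and 225.4 CPM in the RAC3 samples 1, 2 and 3. For RAC3 samples 2 and 3 the genotype field reads RAC4 and RAC5, whereas their titles name RAC3. All 10 hepatocyte markers checked were present, and their summed level was 5352 to 5462 CPM in the controls and 4915 to 5424 CPM with RAC3. Of these markers 3 rose, AFP (log2 fold change 0.16), APOB (0.20) and FGB (0.30). Another 3 fell, TF (-0.56), TTR (-0.26) and AHSG (-0.33), and the rest did not pass. The summed levels of the endothelial markers (2.46 to 3.15 and 2.55 to 3.77 CPM) and neural markers (1.53 to 2.23 and 1.40 to 3.55 CPM) were low in both groups, with TEK and RBFOX3 at 0 counts. The summed fibroblast markers were 190.8 to 205.6 CPM in the controls and 209.4 to 220.9 CPM with RAC3, but the sum is mostly LUM, which rose (log2 fold change 0.22), while COL1A1 fell (-0.22), PDGFRB was lower at the study's unadjusted thresholds (-0.71), COL3A1 did not pass (-0.12) and DCN stayed below 0.25 CPM. The summed leukocyte markers were 41.98 to 48.7 and 38.2 to 40.4 CPM, mostly CD14, which fell (-0.37), while CD68 rose (0.47) and PTPRC stayed at or below 0.51 CPM. The markers of either cell type thus did not move in 1 direction. The part of these markers in the results below was not tested.

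The promoters of PCDH7, PCDH9 and CDH19 are shown first, since these members rose, and those of PCDHB2 and PCDHB3 after them as examples of the clustered genes. The sequences are from RefSeq on GRCh38.p14, which lists 76 of the 98 members, and each was limited to at most 250 bases before the gene start of both RefSeq and GENCODE release 29. Of the 13 members that rose or fell, CDH6, CDH16, CDH17, CELSR1 and DCHS1 had no entry. Capitals in the first 3 sequences mark matches on either strand to ACAAT, the core of SOX factor sites, searched because the study includes SOX6, and to CTTTGA, a core of TCF/LEF sites. These lie at chr4:30720119-30720368 on the plus strand, chr13:67230446-67230586 on the minus strand and chr18:66604139-66604340 on the minus strand.
PCDH7 promoter: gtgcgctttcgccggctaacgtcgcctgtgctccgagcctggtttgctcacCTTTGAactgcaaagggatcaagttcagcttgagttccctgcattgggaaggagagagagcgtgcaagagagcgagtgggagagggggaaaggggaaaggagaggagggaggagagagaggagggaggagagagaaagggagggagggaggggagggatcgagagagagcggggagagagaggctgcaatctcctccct
PCDH9 promoter: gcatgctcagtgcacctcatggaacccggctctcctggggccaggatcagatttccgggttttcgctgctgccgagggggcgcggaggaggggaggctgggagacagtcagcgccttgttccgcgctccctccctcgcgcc
CDH19 promoter: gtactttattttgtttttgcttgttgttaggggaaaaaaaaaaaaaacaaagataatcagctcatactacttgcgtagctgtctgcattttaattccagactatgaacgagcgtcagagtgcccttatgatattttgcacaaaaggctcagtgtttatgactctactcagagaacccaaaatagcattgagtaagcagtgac
The PCDH7 window held 1 CTTTGA match and no ACAAT match, and the other 2 windows held neither. Sites farther upstream lay outside the windows and could not be found. The SOX6 site that the study reports in the NNMT promoter lies farther from the gene start than these windows reach. Missing ACAAT matches thus do not decide whether SOX6 acts on these genes, which was not tested. Among 35116 promoter entries of the same annotation, the 250 bases before the start held ACAAT in 24.6% and CTTTGA in 11.2%. Over the 97 entries of family members, ACAAT was in 34.0% and CTTTGA in 14.4%. The member windows were also poorer in GC, with a median of 46.4% against 58.0% over all entries. Words rich in A and T, such as ACAAT, can differ in share for this reason alone. The part of base composition in these shares was not tested. ACAAT was in 1 of 5 entries of members that rose, from 5 genes, and in 2 of 4 entries of members that fell, from 3 genes. CELSR2 and PCDHGB2 had no match, so both matches among members that fell belong to 2 entries of a single gene, PCDHGB5. The E-box CAGGTG, a site of SNAI and ZEB repressors, was in 17.5% of all entries and in none of the 3 windows printed above. The PCDH7 window also held an unbroken purine run (A or G) of 81 bases. A run at least as long, on either strand, was found in 0.026% of all entries, while the longest run of the PCDH9 sequence was 13 bases and that of CDH19 19 bases. The search for runs was made after the sequences were seen.

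The clustered protocadherin genes share a promoter element with the core CGCT, marked in capitals on either strand in the next 2 sequences. They lie at chr5:141094365-141094577 and chr5:141100223-141100472 on the plus strand.
PCDHB2 promoter: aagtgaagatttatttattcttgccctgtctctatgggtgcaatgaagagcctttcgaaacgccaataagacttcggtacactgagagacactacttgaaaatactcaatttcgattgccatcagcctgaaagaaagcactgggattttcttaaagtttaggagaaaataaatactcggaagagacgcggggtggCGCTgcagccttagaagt
PCDHB3 promoter: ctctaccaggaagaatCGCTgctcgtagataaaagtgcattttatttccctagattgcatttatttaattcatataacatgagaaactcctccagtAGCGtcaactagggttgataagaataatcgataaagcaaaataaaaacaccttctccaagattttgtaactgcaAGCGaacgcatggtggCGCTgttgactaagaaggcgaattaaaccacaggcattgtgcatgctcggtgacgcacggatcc
The longest run that both held was GGTGGCGCTG, of 10 bases. The word GGCGCTG inside it, chosen after the sequences were seen and overlapping CGCT, ended 50 bases before the RefSeq start of PCDHB2 and 59 bases before that of PCDHB3. It was found on either strand in 11 of 14 PCDHB entries (78.6%), 3 of 25 PCDHG entries (12%) and none of 13 PCDHA entries, against 9.24% of all entries. The 11 include PCDHB2 and PCDHB3, from which the word was taken, so their matches were fixed in advance and raise the PCDHB share. PCDHB3, which also rose, held 1 ACAAT match in this window, left in lower case, and PCDHB2 held none. The 4-base core alone was in 64.8% of all entries and in 92.9% of the PCDHB entries.

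Of the 98 members, 57 had enough counts for the test by edgeR's filterByExpr and 41 did not. No read was counted in any of the 6 samples for 14 members, among them the PCDH7 paralog PCDH11X, the neuronal cadherins CDH9, CDH10 and CDH18, and PCDHB1. The other 27 had a mean of at most 10 counts per sample, and the 3 highest of these were PCDHA3 with 5, 19 and 11 counts in the controls and 11, 6 and 8 with RAC3, FAT2 with 7, 11 and 1 against 15, 8 and 7, and PCDHGA12 with 9, 7 and 4 against 2, 8 and 16. These 3 genes overlapped between the groups and lay at the limit of what this depth can show. Summed over all members, the family had 1008, 993.1 and 971.4 CPM in the controls and 1046, 1007 and 1034 CPM with RAC3, so that the RAC3 sample 2 lay below the highest control.

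At the thresholds of the study (more than 1.5-fold up or down, with p below 0.05 before adjustment) 7 of the 57 tested members (12.3%) were differentially expressed, against 4.68% of the 12941 genes tested. PCDH7, PCDHGA1, PCDHB9, CDH19, PCDH9 and CDH17 were higher with RAC3, where 1.68% of all genes were higher, and CDH16 was lower, where 2.99% were lower. These calls are from the edgeR fit used here, with 218 genes higher and 387 lower. They are not the study's own calls, which were fewer and nearly even in direction. With scaling by library size alone, 296 genes were higher and 315 lower. The cause of the difference from the study was not tested. With an adjusted p-value below 0.05, from the quasi-likelihood test of edgeR, adjusted by Benjamini-Hochberg over all genes tested, 13 members (22.8%) passed, against 28.5% of all genes. Only these 13 are called risen or fallen here. The 7 that rose were PCDH7, PCDH9, CDH17, CDH19, CDH6, PCDHGC3 and PCDHB3 (13.3% of all genes rose), and the 6 that fell were CDH16, DCHS1, PCDHGB2, CELSR2, CELSR1 and PCDHGB5 (15.3% fell). The groups of 3 samples did not overlap for 19 members (33.3%), against 42.5% of all genes tested. The median log2 fold change was 0.09 over the tested members, 35 above 0 and 22 below, and 0.00 over all genes. Nothing about the family is read from these shares, because it was chosen on this comparison.

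**Figure D1:**
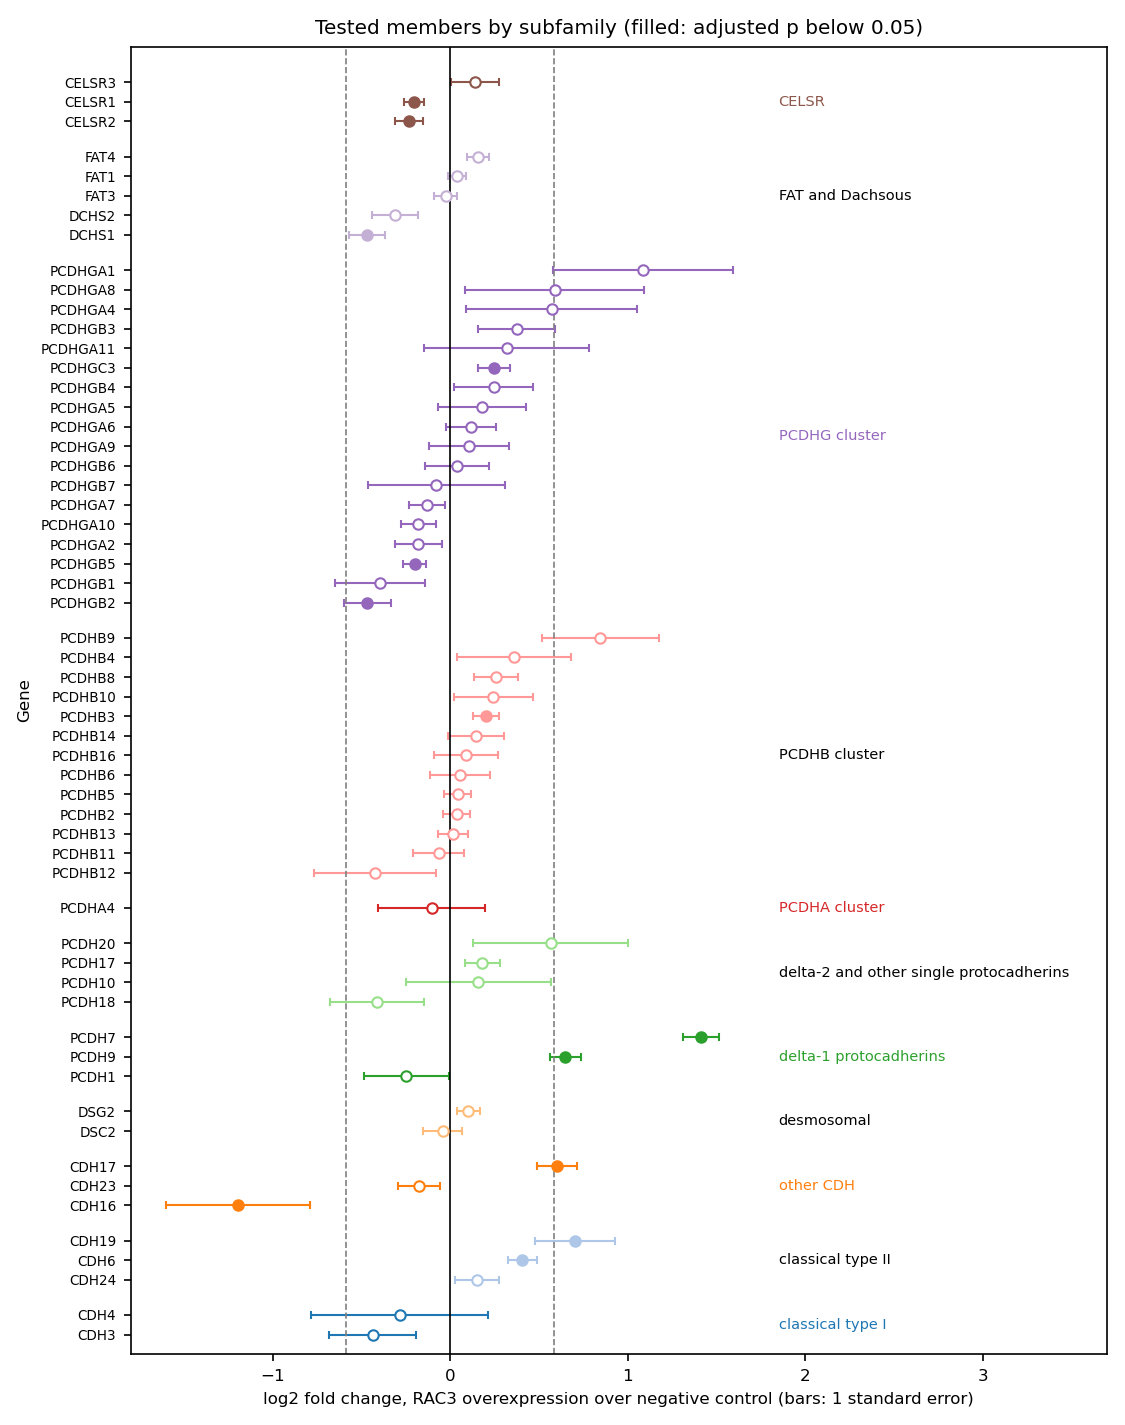
log2 fold change (x axis) of each of the 57 tested members (y axis, grouped by subfamily) between 3 RAC3-overexpressing and 3 negative control samples, with bars of 1 standard error, filled points for an adjusted p-value below 0.05 and dashed lines at the fold of 1.5. PCDH7 lies farthest to the right at 1.41 and CDH16 farthest to the left at -1.20, while most members of the PCDHB and PCDHG clusters lie within the dashed lines.

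PCDH7 is a delta-1 protocadherin whose cytoplasmic tail binds the phosphatase subunit PPP1CA and the phosphatase inhibitor SET. Its gene (ENSG00000169851) lies at chr4:30720415-31146805 on the plus strand in GENCODE release 29 (GRCh38) and shares no exonic base with another gene. PCDH7 had 8.96, 9.92 and 8.81 CPM in the controls, from 125, 149 and 158 counts, and 23.0, 25.8 and 25.0 CPM with RAC3, from 409, 424 and 353 counts. Every RAC3 sample lay above every control, and the spread within each group was small beside the gap. The log2 fold change was 1.41 (standard error 0.102), a 2.67-fold higher level. In such bulk RNA, more cells with the transcript and more transcript per cell cannot be told apart. On the authors' length-scaled FPKM values the rise was from 1.34 ± 0.111 to 3.73 ± 0.222 (SD, n = 3 per group). The count and the FPKM value of each library together imply a length of 6633 to 6802 bases for PCDH7, nearly the same in all 6. Of the 13 members that rose or fell, all had FPKM means in the same direction, 12 had groups without overlap in CPM, and 8 had groups without overlap in FPKM. CDH16, CELSR1, CELSR2 and PCDHGB2 overlapped on the FPKM scale alone, and PCDHGB5 on both scales.

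PCDH9, another delta-1 protocadherin, had 34.0, 34.6 and 39.9 CPM in the controls and 64.1, 48.8 and 57.5 CPM with RAC3. Its groups did not overlap, its log2 fold change was 0.65 (standard error 0.0882), and the RAC3 samples differed more among themselves than those of PCDH7 did. Without RAC3 replicate 1, the highest, it was 0.55, below the fold threshold. PCDH1, the delta-1 member best known from airway epithelium, did not pass either threshold, with 3.08, 3.80 and 4.63 against 3.10, 4.13 and 2.48 CPM in overlapping groups (log2 fold change -0.25, standard error 0.239). With PCDH11X at 0 counts, the summed delta-1 level was 49.2 ± 3.71 CPM in the controls and 84.6 ± 5.79 CPM with RAC3 (SD, n = 3 per group), of which PCDH9 was the larger part. PPP1CA fell, with a log2 fold change of -0.15, and SET had a log2 fold change of 0.02 and did not pass.

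Among the type II classical cadherins, 3 of 13 members were tested. CDH6, known as kidney cadherin, rose from 23.2, 20.7 and 20.6 to 27.0, 28.7 and 29.7 CPM, a log2 fold change of 0.41 (standard error 0.0839), which is below the fold threshold of the study. Other annotated genes, 1 of the 2 on the opposite strand, cover 9.97% of the exonic bases of CDH6, and their reads may be counted with it. CDH19, a cadherin of Schwann cell precursors, rose from 3.15, 2.00 and 3.01 to 4.39, 4.68 and 4.26 CPM, a log2 fold change of 0.70 (standard error 0.225). The control replicate 2 was the lowest for CDH19, and without it the log2 fold change was 0.52 and neither threshold was passed. The adjusted threshold was also missed without RAC3 replicate 1 (0.71) or 2 (0.67). The groups did not overlap for either gene. CDH24 did not pass, with a log2 fold change of 0.15.

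CDH17 and CDH16 belong to a branch with a short cytoplasmic tail that does not bind catenins. CDH17, the liver-intestine cadherin, rose from 11.96, 10.3 and 11.5 to 17.3, 15.8 and 18.2 CPM, without overlap. Its log2 fold change of 0.60 (standard error 0.11) lay just above the fold threshold, which is 0.585 on this scale. Without control replicate 2 it was 0.53 and without RAC3 replicate 3 it was 0.56, short of that threshold. CDH16, the kidney-specific cadherin, fell from 1.72, 1.27 and 1.23 to 0.51, 0.49 and 0.85 CPM, a log2 fold change of -1.20 (standard error 0.404). It rested on 24, 19 and 22 counts in the controls and 9, 8 and 12 counts with RAC3, and with so few reads its adjusted p-value passed 0.05 in only 6 of the 14 alternative settings that could be fitted (among the fits without 1 sample, only in that without RAC3 replicate 3), while the study thresholds were passed in all 14. CDH3 (P-cadherin) and CDH4 (R-cadherin), the tested type I members, did not pass, with log2 fold changes of -0.44 and -0.29.

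**Figure D2:**
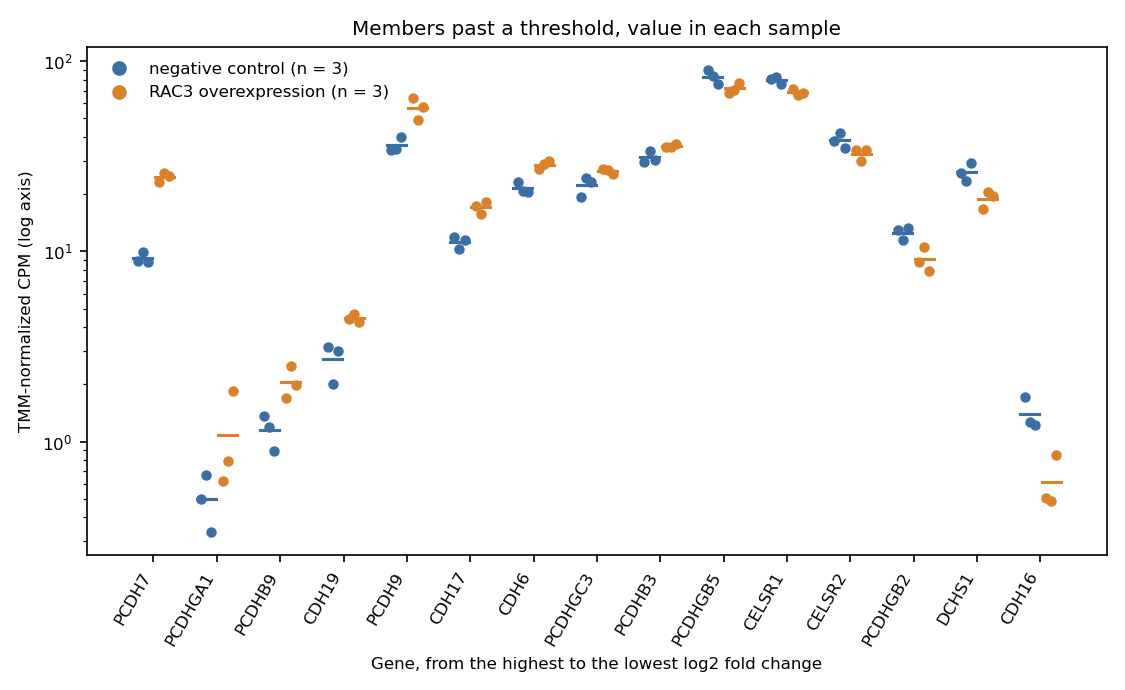
TMM-normalized CPM on a log axis (y) of the 15 members past either threshold (x), with a point for each sample and a line at the mean of the 3 negative control (blue) and 3 RAC3 samples (orange). PCDH7 shows the widest gap between the groups, whereas the points of PCDHGA1 and PCDHGB5 overlap between them.

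Among the giant cadherins, DCHS1, the ligand of FAT4, fell from 25.7, 23.3 and 29.3 to 16.7, 20.6 and 19.7 CPM, a log2 fold change of -0.47 (standard error 0.102), without overlap. Genes on the opposite strand cover 9.36% of its exonic bases, and reads from both strands may be counted together. Its partner FAT4 did not pass, with a log2 fold change of 0.16, although its groups did not overlap either. CELSR1 fell from 80.5, 82.1 and 75.4 to 71.7, 66.4 and 68.3 CPM (log2 fold change -0.20, standard error 0.0579), and CELSR2 from 38.2, 41.9 and 35.1 to 34.2, 29.8 and 34.0 CPM (log2 fold change -0.23, standard error 0.0808). Both are core proteins of planar cell polarity, and their changes were small. CELSR1 missed the adjusted threshold without control replicate 2 (-0.18) or RAC3 replicate 2 (-0.18), and CELSR2 without control replicate 1 (-0.24) or 2 (-0.17) or RAC3 replicate 2 (-0.17) or 3 (-0.26). CELSR3 did not pass, at 0.14. FAT1, a large receptor that restrains growth, had 135.3, 132.7 and 123.6 CPM in the controls and 137.6, 134.8 and 128.9 CPM with RAC3, in overlapping groups. The summed FAT and Dachsous level was 261.4 ± 6.53 and 260.1 ± 2.46 CPM (SD, n = 3 per group).

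The desmosomal cadherins did not pass. DSG2 had 81.9, 77.2 and 75.4 CPM in the controls and 92.6, 76.6 and 81.9 CPM with RAC3, which overlapped, and DSC2 had a log2 fold change of -0.04. The delta-2 protocadherins, a group that binds the WAVE complex, and the remaining single protocadherins had 4 tested members of 8, and none passed (log2 fold changes of -0.41 to 0.57). The widest positive value, 0.57, was that of PCDH20, whose exons lie to 95.8% inside another annotated gene.

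The 53 clustered protocadherins lie in 3 groups on chromosome 5, PCDHA from 140786136 to 141012347, PCDHB from 141051135 to 141249365 and PCDHG from 141330571 to 141512981. Each PCDHA and PCDHG transcript joins its own first exon to constant exons that all genes of the cluster share, so a median of 49.4% of the exonic bases of a PCDHA gene and 43.9% of those of a PCDHG gene belong to other genes as well. Reads on these bases cannot be assigned to 1 gene, and their values are uncertain. PCDHB genes have single exons, but a median of 13.5% of their 50-base words occur in another member of the family.

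Only 1 of 15 PCDHA genes, PCDHA4, had enough counts for the test. It had 2.87, 2.13 and 2.01 CPM in the controls and 1.91, 1.58 and 3.05 CPM with RAC3, in overlapping groups. Of 16 PCDHB genes, 13 were tested, and PCDHB3 alone rose, from 29.6, 33.7 and 30.4 to 35.3, 35.5 and 36.8 CPM (log2 fold change 0.20, standard error 0.0739). The rise of PCDHB3 passed without control replicate 2 and missed the threshold without any other single sample (0.16 to 0.21). A gene on the opposite strand covers 10.6% of the exonic bases of PCDHB3, and reads from both strands may be counted together. PCDHB2, whose promoter is printed beside that of PCDHB3, had 30.5, 29.8 and 30.7 against 32.0, 28.3 and 33.2 CPM and did not pass. PCDHB5 had 26.1, 25.4 and 25.9 against 27.0, 26.9 and 25.8 CPM and did not pass. PCDHB9 passed the study thresholds but not the adjusted one, with 1.36, 1.20 and 0.89 against 1.69, 2.49 and 1.99 CPM (log2 fold change 0.85, standard error 0.33). Without control replicate 3 (0.67) or RAC3 replicate 2 (0.68) it missed the study thresholds. The summed PCDHB level was 155.2 ± 3.52 CPM in the controls and 166.0 ± 1.3 CPM with RAC3 (SD, n = 3 per group).

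Of 22 PCDHG genes, 18 were tested, with 1 rise and 2 falls. PCDHGC3, a C-type gene that neurons express constitutively, rose from 19.2, 24.3 and 23.3 to 27.2, 26.7 and 25.5 CPM (log2 fold change 0.25, standard error 0.0913), and it too passed without control replicate 2 and missed the threshold without any other single sample (0.15 to 0.28). PCDHGB2 fell from 12.9, 11.5 and 13.3 to 8.84, 10.5 and 7.87 CPM (log2 fold change -0.47, standard error 0.131), without overlap, and missed the threshold without RAC3 replicate 3 (-0.38). Its FPKM values, 3.04 ± 0.356 in the controls and 2.58 ± 0.31 with RAC3 (SD, n = 3 per group), overlapped. PCDHGB5 fell from 89.7, 83.1 and 75.7 to 68.3, 70.7 and 77.0 CPM (log2 fold change -0.20, standard error 0.0662), and its RAC3 replicate 3 lay above control replicate 3. It missed the threshold without control replicate 1 (-0.15) or 2 (-0.20) or RAC3 replicate 1 (-0.16) or 2 (-0.19). PCDHGA1 passed only the study thresholds, with 0.50, 0.67 and 0.34 against 0.62, 0.79 and 1.84 CPM (log2 fold change 1.08, standard error 0.507). Its groups overlapped, and without the RAC3 replicate 3 its log2 fold change was 0.50. The study thresholds were also missed without control replicate 1 or 3, with the DESeq2 Wald test, with limma-voom and with only genes without any count removed, so that PCDHGA1 passed them in 8 of 14 settings. DESeq2 called 6 members at the study thresholds and 9 at the adjusted one. The summed PCDHG level was 209.3 ± 7.82 CPM in the controls and 197.1 ± 2.65 CPM with RAC3 (SD, n = 3 per group).

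**Figure D3:**
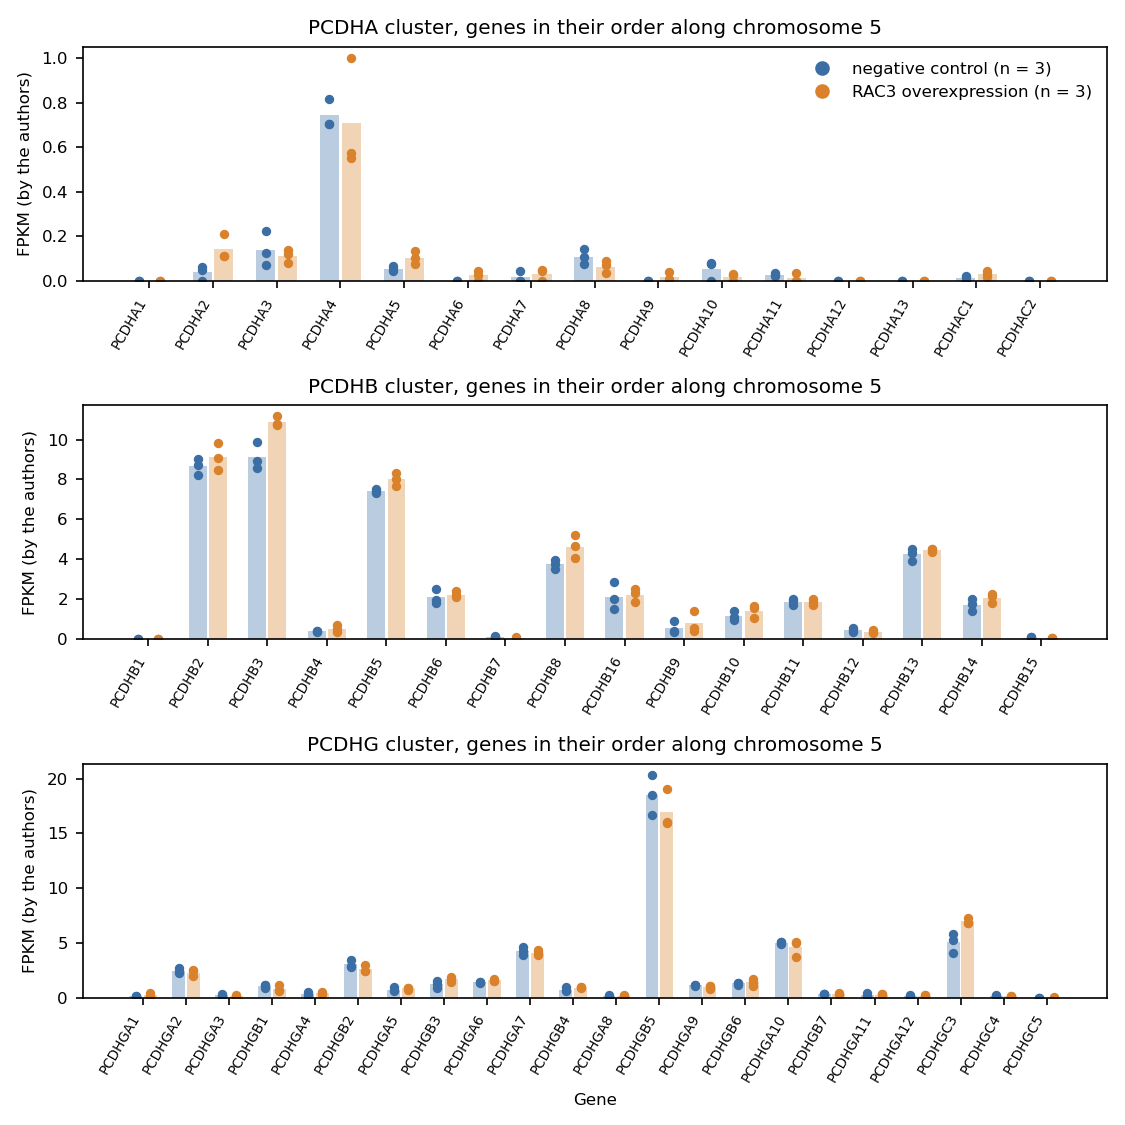
FPKM values by the authors (y axis) of all 53 clustered protocadherins in their order along chromosome 5 (x axis), with points for the samples and bars for the mean of the 3 negative control (blue) and 3 RAC3 samples (orange). Each panel has its own scale: PCDHA values stay at or below 1 FPKM, PCDHB2, PCDHB3 and PCDHB5 lead their cluster, and PCDHGB5 has the highest mean of the PCDHG cluster.

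Levels between genes were compared on the length-scaled FPKM values. The highest mean FPKM over all 6 samples was that of PCDHGB5 (17.8), then DSG2 (14.3), FAT1 (11.1), PCDHB3 (10.01), PCDHB2 (8.90), PCDHB5 (7.72), CELSR1 (7.53) and PCDH9 (6.09). The SD of the 3 samples of a group was up to 1.83 FPKM for PCDHGB5 and 1.53 FPKM for DSG2, so neighbouring places in this order can change between samples. Of the exonic bases of PCDHGB5, 44.96% belong to other genes as well, so its place may also depend on how shared reads were assigned. On the same scale CDH1 had 49.4, CDH2 14.6 and CTNNB1 (beta-catenin) 135.4, all above PCDH7. For 10 of the 58 members that averaged 10 or more counts, the length implied by count and FPKM differed by more than 1.5 times between libraries. Among the members past a threshold, this held for CDH16 (1281 to 2984 bases), PCDHB9 (1450 to 4338 bases) and CDH19 (2696 to 4167 bases). Their FPKM and count values therefore do not scale alike.

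GC content of the longest annotated transcript moved with the fold changes. The 7 members that rose had 34.3% to 56.5% GC (median 41.5%), and the 6 that fell had 54.98% to 62.0% (median 60.4%). As a description, Spearman's rho between GC content and log2 fold change was -0.412 over the 57 tested members and -0.512 over 12863 tested genes, which share the same 6 libraries. Once the GC trend of each library was removed, an alternative added after seeing the data, rho was -0.196 over the members, and 8 of the 13 members that rose or fell still passed the adjusted threshold. These were PCDH7 (log2 fold change 1.30), PCDH9 (0.46), CDH17 (0.52), CDH6 (0.27), PCDHGC3 (0.36), PCDHB3 (0.21), DCHS1 (-0.29) and PCDHGB2 (-0.37). The other 5 did not pass it: CDH19 (0.51), CDH16 (-1.03), PCDHGB5 (-0.10), CELSR2 (-0.07) and CELSR1 (-0.03). PCDH9, CDH17 and CDH19 also no longer passed the study thresholds, which left 4 members past these. PCDH7, at 41.5% GC, passed both thresholds in all 15 alternative settings, with log2 fold changes between 1.30 and 1.47.

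**Figure D4:**
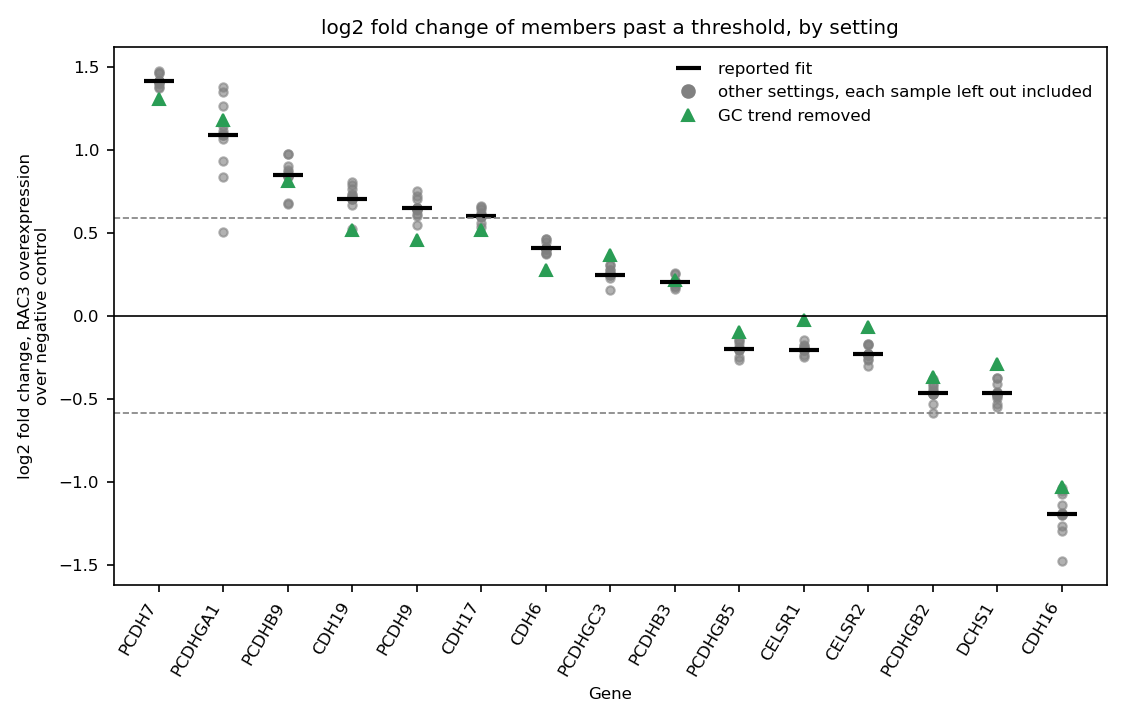
log2 fold change (y axis) of the 15 members past either threshold (x axis) in the reported fit (black line), in the other settings (grey points) and with the GC trend removed (green triangle), with dashed lines at the fold of 1.5. PCDH7 stays between 1.30 and 1.47, PCDHGA1, CDH19, PCDH9 and CDH17 cross the dashed line in some settings, and CELSR1 and CELSR2 come close to 0 when the GC trend is removed.

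Another 65 genes of cadherin adhesion in 7 lists, written from general knowledge and without RAC3 itself, had 61 tested genes, of which 15 rose and 14 fell (median log2 fold change 0.02), where 13.3% of all genes tested rose and 15.3% fell. These lists were also written with earlier results known, so nothing is read from their counts. The part of the GC trend described above in the changes of these genes was not tested. VANGL2, a planar polarity protein, was the only one past the study thresholds, which 4.68% of all genes tested passed, falling from 14.7, 16.7 and 14.4 to 10.6, 8.32 and 10.4 CPM (log2 fold change -0.64). Of 12 tested catenins and plaque proteins, 2 rose, including CTNNB1 (0.14), and 4 fell, including JUP (-0.19) and DSP (-0.22). Of 8 other junction receptors, 3 rose, CDH2 (0.56), NECTIN3 (0.57) and CADM1 (0.23), while NECTIN2 fell (-0.18) and CDH1 did not pass (-0.02). Of 9 planar polarity partners, 3 fell and none rose. Of 11 WAVE complex and RAC genes other than RAC3, ABI1 rose (0.26), and WASF1, WASF2 and CYFIP2 fell (-0.53 for CYFIP2). Of 8 genes that process cadherins, 3 rose, including PCSK5 (0.58), and 2 fell, including FURIN (-0.21). Of 11 regulators of the protocadherin clusters, 6 rose and none fell, beside 13.3% and 15.3% of all genes, and they included the cohesin loader NIPBL (0.34), the cohesin release factor WAPL (0.28) and the cohesin subunit RAD21 (0.20), while CTCF, which sets the loops of these clusters, did not pass (0.04).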

How the data were processed

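Polyadenylated RNA of 3 RAC3-overexpressing and 3 negative control Huh-7 samples was sequenced by the study. The deposited table holds the authors' raw counts per gene, without normalization, and FPKM values that the authors scaled to length and depth. Group means by the authors were not used. The submitters' processing notes name Bowtie2 2.2.8, HISAT2, StringTie 1.3.1 and DESeq2. The genome build and strand setting are not given in the sources used here. Without a known strand setting, reads of overlapping antisense genes cannot be told apart.

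The fit used edgeR 4.0.16 under R 4.3.3 (filterByExpr, TMM, quasi-likelihood F test, two-sided, no covariate, Benjamini-Hochberg over 12941 genes), on all 6 samples, grouped by title. The code was tested on simulated data. Total counts lay between 13855762 and 18199888. Replicates differed by more than counting noise. The members and lists were chosen with earlier results of these data known. Named were PCDH7 and its delta-1 paralogs, members past a threshold, the 8 with the highest mean FPKM, and the leading 2 of each cluster. FAT4, CELSR3, CDH24, CDH3, CDH4, DSC2, PCDH20 and most genes of the other lists were named after their values were seen. Alternatives were other scalings, filters, DESeq2 1.42.0, limma-voom (limma 3.58.1), a replicate block, each sample left out and, added later, a GC trend removed (lowess, span 0.3).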

Additional observations from a re-analysis of the deposited data

How the results depend on the processing

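PCDH7 passed both thresholds in all 15 alternative settings. PCDH9, CDH17, CDH6 and DCHS1 passed the adjusted threshold in all 15, PCDHGB2 in 14, CELSR1 and CDH19 in 11, PCDHGB5 in 9, CELSR2 and PCDHGC3 in 7 and PCDHB3 in 5. No called member changed sign. With scaling by library size alone, 9 members rose and 3 fell, and 4 other adhesion genes passed the study thresholds. With at least 10 counts required in every sample, CDH16 was not tested, so that 0 members were lower at the study thresholds. With the GC trend removed, 4 members passed the study thresholds, 3 of them higher, and 2 members fell by the adjusted p-value. The cause of these moves was not tested.

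Without 1 sample at a time, the members with an adjusted p-value below 0.05 numbered 6 to 11, those that rose 4 to 6 and those that fell 2 to 6. The lowest, 6, came without RAC3 replicate 2. At the study thresholds 1 to 3 members were lower and 0 to 3 other adhesion genes passed. These fits have fewer samples.

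With a replicate block, 7 members passed the study thresholds and 10 the adjusted one, and 2 other adhesion genes passed the study thresholds. The replicate numbers do not pair the samples: deviations of same-numbered samples correlated at -0.130, -0.062 and -0.015 over 10169 genes with a mean of at least 100 counts. Depth limits the members with few counts, CDH16, PCDHGA1 and PCDHB9 among those past a threshold.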
